A study of Mus musculus with 22 samples.

Results

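Hbb-b1, Hbb-bt, Hba-a1 and Alas2 are 4 of the 24353 gene rows measured in EMT6 mammary tumours. They were chosen by their values in the tumours' CD45-negative cells, where they were highest with vehicle, so those values are a description and carry no test. Hbb-b1 and Hbb-bt encode adult beta-globin chains, Hba-a1 encodes the adult alpha-globin chain, and Alas2 encodes the enzyme that starts haem synthesis in red cell precursors. The deposited tables list them as HBB-B1, HBB-BT, HBA-A1 and ALAS2. Because globin genes occur as near-identical copies, the 5 adult globin rows were also summed: Hba-a1 with Hba-a2 as the alpha sum, Hbb-b1 with Hbb-bt and Hbb-bs as the beta sum, and all 5 as the globin sum.

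RNA sequencing was done on 22 libraries from tumours that wild-type BALB/c mice, injected at 5 to 6 weeks of age, grew from EMT6 cells placed in both inguinal fat pads. EMT6 is a mammary carcinoma line of the same mouse strain. Dissociated tumours were split with beads against CD45, a surface protein of leukocytes that mature red blood cells lack, and the fractions were sequenced separately. Groups received vehicle, JQ1 (50 mg/kg by daily gavage), JQ1 with an anti-PD-L1 antibody (clone 10F.9G2, 10 mg/kg), JQ1 with paclitaxel (10 mg/kg), or all 3 drugs, the antibody and paclitaxel being injected into the abdominal cavity. JQ1 keeps BET proteins off acetylated histones, paclitaxel stabilises microtubules, and anti-PD-L1 blocks a ligand of the T cell receptor PD-1. Every treated mouse received JQ1. The CD45-negative fraction held 3 libraries each of JQ1 with paclitaxel and of the 3-drug group, and 2 of each remaining group. The CD45-positive fraction held 2 libraries in each of the 5 groups. The library titles hold codes that were read as a mouse and a tumour side (L or R), which the labels do not spell out. Read so, libraries of 3 groups (vehicle, JQ1, and JQ1 plus the antibody) carry 1 mouse code per group, with a right and a left tumour each, so a difference of these groups cannot be told apart from a difference between mice, and p-values measure only the spread between tumours. The tumour codes joined 10 tumours that had a library of each fraction.

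A haemoglobin molecule pairs alpha with beta chains around haem. Red cell precursors in the marrow and spleen make globin messenger RNA in very large amounts, reticulocytes (young red cells without a nucleus) still carry it into the blood, and it fades as red cells mature. The precursors also need haem synthesis, iron uptake through the transferrin receptor, a specialised membrane skeleton, and the transcription factors Gata1 and Klf1. In solid tumours globin messenger RNA is best known as a sign of blood in the sample, although other cells can also make small amounts.

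The alpha-globin rows cannot be read singly, which the end of the coding sequence shows. Below are its last 100 bases, from the last exon of each gene, for the alpha pair and for the beta genes Hbb-bs and Hbb-bt, in the GENCODE M21 annotation of GRCm38. They lie at chr11:32284292-32284391 (plus strand), chr11:32297109-32297208 (plus strand), chr7:103826665-103826764 (minus strand) and chr7:103812656-103812755 (minus strand). The capital marks the only coding base that differs within a pair.
Hba-a1: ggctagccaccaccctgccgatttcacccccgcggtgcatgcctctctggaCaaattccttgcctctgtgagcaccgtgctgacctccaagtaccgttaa
Hba-a2: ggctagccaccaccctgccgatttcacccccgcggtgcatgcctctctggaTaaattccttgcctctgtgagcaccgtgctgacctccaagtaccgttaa
Hbb-bs: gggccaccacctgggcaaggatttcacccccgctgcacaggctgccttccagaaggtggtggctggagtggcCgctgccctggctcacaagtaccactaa
Hbb-bt: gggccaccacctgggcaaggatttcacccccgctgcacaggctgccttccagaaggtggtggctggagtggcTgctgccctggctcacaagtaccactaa
Counted from 1 at the first base of the start codon, Hba-a1 and Hba-a2 differ by C381T in 429 coding bases, and Hbb-bs and Hbb-bt by C417T in 444. Of all stretches of 75 coding bases, 86.2% were shared by the alpha pair and 92.4% by the beta pair. In this annotation, a stretch of that length from most of the coding sequence thus fits both members of a pair equally well. The authors' tables were made on the older build mm9, so these sequences were matched by symbol only. They were not compared with sequences of the BALB/c strain. Hbb-b1 had no entry in the sequence tables used. Sharing of reads between Hbb-b1 and Hbb-bt, the beta rows with signal, was therefore not examined.

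How the alpha signal was split between the copies differed from library to library. In the CD45-negative fraction Hba-a2 received 48.3% and 0.0195% of the alpha sum in vehicle replicates 1 and 2, which came from a right and a left tumour with the same mouse code. It received 0.0541% in JQ1 with anti-PD-L1 replicate 1 but 99.6% in replicate 2, and 99.9% in replicate 1 of the 3-drug group. In the other 7 CD45-negative libraries its share was between 1.08% and 13.8%. In the CD45-positive fraction the Hba-a2 row lay between 0.0153 and 0.0336 FPKM (fragments per kilobase of transcript, scaled to the library's total, so a level per length) in every library. Low values of the Hba-a1 row, such as 0.00158 FPKM in 3-drug replicate 1, therefore say nothing of alpha-globin without the Hba-a2 row, which was at 2.68 FPKM there. The beta split was steadier. In the 5 CD45-negative libraries with at least 1 FPKM of Hbb-bt, the Hbb-b1 level was 1.59 to 1.89 times the Hbb-bt level, and Hbb-bs reached at most 0.0151 FPKM in any library.

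**Figure D1:**
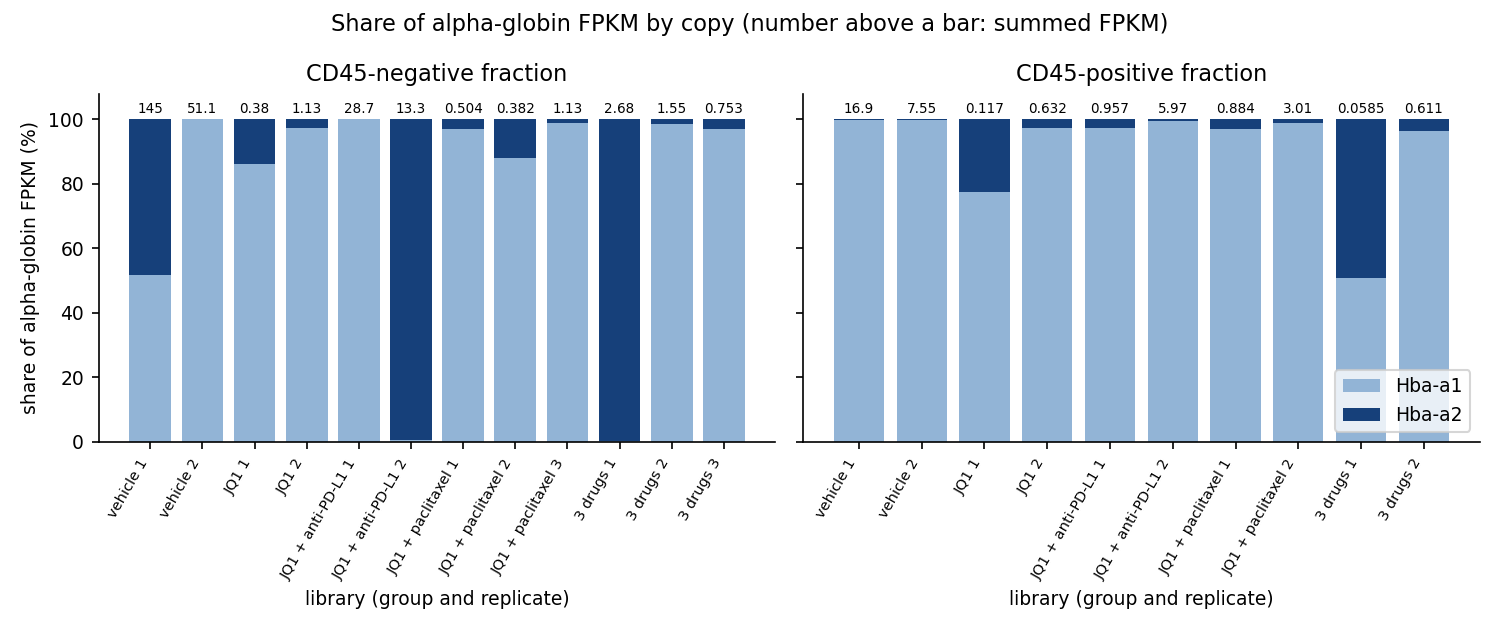
Share of the alpha-globin FPKM (percent, vertical axis) listed under Hba-a1 (light) and Hba-a2 (dark) in each library (horizontal axis, group and replicate), with the alpha sum in FPKM above each bar. Hba-a2 holds 99.6% and 99.9% of the signal in 2 CD45-negative libraries and 48.3% in vehicle replicate 1.

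The beta-globin Hbb-b1 was the member with the highest level in CD45-negative vehicle tumours, at 116 and 36.5 FPKM. It was at 0.311 and 1.36 FPKM with JQ1, at 0.362, 0.147 and 0.559 FPKM with JQ1 and paclitaxel, and at 1.82, 1.22 and 0 FPKM with all 3 drugs. With JQ1 and anti-PD-L1 it was at 24.2 and 13.0 FPKM. Both vehicle libraries thus lay above all 10 treated ones, and both libraries of JQ1 with anti-PD-L1 lay above the other 8 treated ones.

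Hbb-bt, the second adult beta-globin, kept the same order. It was at 69.9 and 21.6 FPKM with vehicle, at 14.4 and 6.87 FPKM with JQ1 and anti-PD-L1, and between 0 and 1.15 FPKM in the remaining 8 libraries. The alpha sum was at 145 and 51.1 FPKM with vehicle and at 28.7 and 13.3 FPKM with JQ1 and anti-PD-L1. Elsewhere it was at 0.38 and 1.13 FPKM (JQ1), at 0.504, 0.382 and 1.13 FPKM (JQ1 with paclitaxel), and at 2.68, 1.55 and 0.753 FPKM (all 3 drugs). In the 5 CD45-negative libraries with at least 1 FPKM of Hbb-bt, the alpha sum was 0.667 to 0.901 times the beta sum. In the 5 such CD45-positive libraries it was 0.305 to 1.24 times the beta sum, both extremes coming from JQ1 with anti-PD-L1, so the balance of the chains was less even there. Hba-a1 by itself was at 74.9 and 51.1 FPKM with vehicle and between 0.00158 and 28.7 FPKM in the treated libraries.

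Alas2 was low everywhere. It was at 0.981 and 0.618 FPKM in CD45-negative vehicle libraries. In the treated ones it was at 0 and 0.145 FPKM with JQ1, at 0.133 and 0.14 FPKM with JQ1 and anti-PD-L1, listed at 0 in all 3 libraries of JQ1 with paclitaxel, and at 0.12, 0.141 and 0 FPKM with all 3 drugs. These values appear to rest on very few reads. Multiplied by relative depth, those of the 5 treated libraries above 0 were within 0.1 of 2, 3 or 4 times a common step. The vehicle libraries were at 37.1 and 14.7 steps. Such a step would be the worth of 1 read where whole reads were counted. It was set from these same treated values, as the lowest divided by 2, so their nearness to whole numbers does not check it. All 4 members had both vehicle libraries above every treated library, as had 8.33% of the 10780 genes tested in the fraction. The members were proposed from these values, so nothing is read from that count.

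As group means, the CD45-negative globin sum was 220 ± 157 FPKM with vehicle (SD, n = 2) and 2.17 ± 1.62 FPKM with JQ1 (n = 2), a 101-fold difference. It was 1.34 ± 0.772 FPKM with JQ1 and paclitaxel (n = 3), 164-fold below vehicle, and 3.30 ± 2.46 FPKM with all 3 drugs (n = 3), 66.7-fold below vehicle. With JQ1 and anti-PD-L1 it was 50.2 ± 24.2 FPKM (n = 2), 4.38-fold below vehicle. The spread within groups was wide, and the lower vehicle library, at 109 FPKM, was only 1.62 times the highest treated library, at 67.3 FPKM. JQ1, JQ1 with paclitaxel and the 3-drug group overlapped one another, with libraries between 0.707 and 5.66 FPKM. On the log2(FPKM + 1) scale, which understates differences of low values, the mean of the 4 treated groups minus vehicle was −4.46 for Hbb-b1, −4.05 for Hbb-bt, −4.82 for Hba-a1, −0.74 for Alas2 and −5.02 for the globin sum. The Hba-a1 value leaves out Hba-a2. With JQ1 and anti-PD-L1, Hba-a1 differed from vehicle by −3.49, but the alpha sum by −2.08. With all 3 drugs these differences were −5.26 and −5.10, with JQ1 −5.24 and −5.67, and with JQ1 and paclitaxel −5.28 and −5.73.

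**Figure D2:**
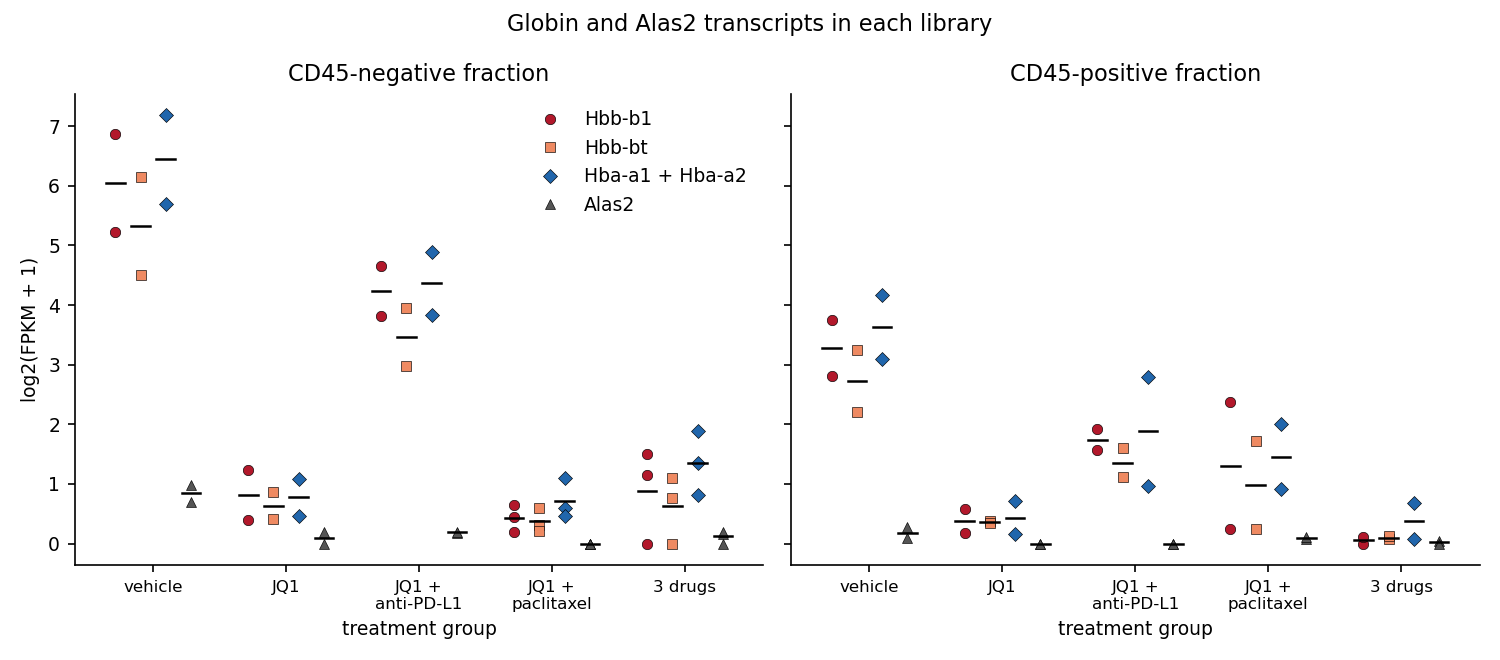
Level of Hbb-b1, Hbb-bt, the alpha sum and Alas2, as log2(FPKM + 1) on the vertical axis, in each treatment group (horizontal axis) of both fractions. Points are libraries and bars are group means. Vehicle libraries are highest for each globin, JQ1 with anti-PD-L1 comes next in the CD45-negative fraction, and Alas2 stays under 1 FPKM in every library.

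Rows of the embryonic globins Hbb-y, Hbb-bh1, Hbb-bh2 and Hba-x and of the theta-globins Hbq1a and Hbq1b were listed at 0 in all 22 libraries. Among the 11 globin rows, signal above 0.0151 FPKM was therefore limited to the adult genes Hbb-b1, Hbb-bt, Hba-a1 and Hba-a2. Globins made up at most 0.0942% of the summed FPKM of any library. In bulk samples, fewer cells of a type and less RNA per cell cannot be told apart.

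The same tumours' CD45-positive cells gave a second set of libraries for the same genes, but not an independent set of tumours. Hbb-b1 was at 12.5 and 5.99 FPKM with vehicle. It was at 0.49 and 0.129 FPKM with JQ1, at 1.96 and 2.78 FPKM with JQ1 and anti-PD-L1, at 0.181 and 4.17 FPKM with JQ1 and paclitaxel, and at 0 and 0.0811 FPKM with all 3 drugs. Both vehicle libraries were again highest, but the libraries of JQ1 with paclitaxel now lay far apart, replicate 2 coming close to the lower vehicle library.

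Hbb-bt was at 8.48 and 3.60 FPKM with vehicle and between 0.05 and 2.30 FPKM in the treated libraries. Hba-a1 was at 16.9 and 7.54 FPKM with vehicle and between 0.0298 and 5.93 FPKM with treatment. The highest treated value of Hbb-bt came from JQ1 with paclitaxel replicate 2, and that of Hba-a1 from JQ1 with anti-PD-L1 replicate 2. Alas2 was at 0.213 and 0.0641 FPKM with vehicle, at 0.0508 and 0.0731 FPKM with JQ1 and paclitaxel, at 0.0268 FPKM in 3-drug replicate 1, and listed at 0 in the other 5 libraries. Scaled by relative depth, these Alas2 values were about 6, 2, 1, 1 and 1 times a common step set from the lowest of them. Groups overlapped and no order is read from them. Of the 4 members, the 3 globins had both vehicle libraries above all 8 treated ones, as had 7.19% of the 10340 genes tested in this fraction.

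The CD45-positive globin sum was 37.9 and 17.1 FPKM with vehicle, 0.915 and 1.04 FPKM with JQ1, 4.09 and 10.8 FPKM with JQ1 and anti-PD-L1, 1.26 and 9.48 FPKM with JQ1 and paclitaxel, and 0.109 and 0.783 FPKM with all 3 drugs. Every vehicle library exceeded every treated one, the lower vehicle value being 1.59 times the highest treated value. Group means were 27.5 ± 14.7 FPKM for vehicle (SD, n = 2), 0.975 ± 0.085 for JQ1 (28.2-fold below vehicle), 7.44 ± 4.74 for JQ1 with anti-PD-L1 (3.70-fold), 5.37 ± 5.81 for JQ1 with paclitaxel (5.12-fold) and 0.446 ± 0.477 for all 3 drugs (61.7-fold). On the log2(FPKM + 1) scale the treated libraries were lower by a mean of 3.05 (n = 8 against 2), and the two-sided exact permutation test over libraries gave p = 0.0444, the smallest p that 45 splits allow. With 1 value per mouse code the difference was −3.15 and the exact permutation p 0.286, again the smallest possible, because vehicle then has 1 value. The exact permutation test gave the same smallest p for the beta sum (−2.73), the alpha sum (−2.59), Hbb-b1, Hbb-bt and Hba-a1, which come from the same libraries and repeat one ordering. Alas2 differed by −0.16 with an exact permutation p of 0.0889. The members were chosen by values in CD45-negative cells of these same tumours. These p-values, and limma's for the globins, are therefore not independent of that choice.

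Fitted beside all 10340 genes with limma, the 3 globins tested were among the 24 lowest differences for the treated mean but missed the threshold of adjusted p under 0.05, which 0.822% of genes passed. The difference was −2.41 ± 0.47 (SE) for Hbb-b1 (limma adjusted p = 0.0589), −2.02 ± 0.38 for Hbb-bt (0.0537) and −2.61 ± 0.50 for Hba-a1 (0.0553). All 3 had an unadjusted p under 0.05, a cut for which no share of all genes was taken. Alas2 and Hba-a2 were too low to be tested. After summing copies, limma gave the beta sum −2.73 ± 0.53 (adjusted p = 0.0586) and the alpha sum −2.59 ± 0.50 (adjusted p = 0.0558). With 1 library left out, its group keeps a lone library that is assumed to vary like the other groups, and the calls moved either way. For Hbb-b1 limma's adjusted p was 0.0237 and 0.0108 without JQ1 with paclitaxel replicate 1 or 2, 0.123 and 0.105 when replicate 1 or 2 of JQ1 with anti-PD-L1 was dropped, and 0.563 and 0.207 when vehicle replicate 1 or 2 was dropped. For Hbb-bt it ranged from 0.0282 to 0.529, and it was under 0.05 only without a library of JQ1 with paclitaxel. For Hba-a1 it ranged from 0.0359 to 0.544, and it was under 0.05 only when replicate 2 of JQ1 with anti-PD-L1 was dropped. With 1 value per mouse code limma's adjusted p was 0.91 for Hbb-b1, 0.744 for Hbb-bt and 0.519 for Hba-a1.

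Set against vehicle group by group, no globin row passed limma's threshold in the CD45-positive fraction. All 3 had an unadjusted p under 0.05 in each of the 4 comparisons. The share of all genes at that unadjusted cut was not taken, so nothing is read from it. JQ1 gave −2.91 for Hbb-b1, −2.36 for Hbb-bt and −3.22 for Hba-a1 (limma adjusted p 0.0559 to 0.0598, with 1.04% of all genes called). The 3-drug group gave −3.22, −2.63 and −3.27 (adjusted p 0.113 to 0.13, with 0.135% called). JQ1 with paclitaxel gave −1.98, −1.74 and −2.18 (adjusted p 0.0753 to 0.0985, with 4.84% called). JQ1 with anti-PD-L1 had the smallest differences, −1.54, −1.37 and −1.76 (adjusted p 0.58 to 0.65, with 0.029% called). These comparisons share the vehicle libraries. Between treated groups, the mean of the groups with anti-PD-L1 minus that of the groups without it was 0.06, 0.05 and 0.19 for Hbb-b1, Hbb-bt and Hba-a1 (limma adjusted p 0.863 to 0.959, with 0.832% called), with standard errors of 0.42, 0.34 and 0.45. For paclitaxel it was −0.38, −0.32 and −0.24 (adjusted p 0.824 to 0.912, with 0.0387% called).

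Side by side within a tumour, the globin sum was higher in the CD45-negative library in 8 of 10 tumours, with a median ratio of 3.83. The tables may have been normalized separately, so these ratios carry no test. Vehicle tumours had ratios of 8.74 and 6.37, JQ1 tumours 1.12 and 3.20, and tumours given JQ1 with anti-PD-L1 16.4 and 3.07. The tumours of the 3-drug group with both libraries had ratios of 52.1 and 4.45. Both exceptions came from JQ1 with paclitaxel, at 0.885 and 0.232, the latter from the tumour whose CD45-positive library, replicate 2, had 9.48 FPKM. Treated tumours thus did not keep one order in both fractions: JQ1 with anti-PD-L1 held the 2 highest treated sums among CD45-negative libraries, whereas JQ1 with paclitaxel replicate 2 ranked second among treated CD45-positive libraries.

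**Figure D3:**
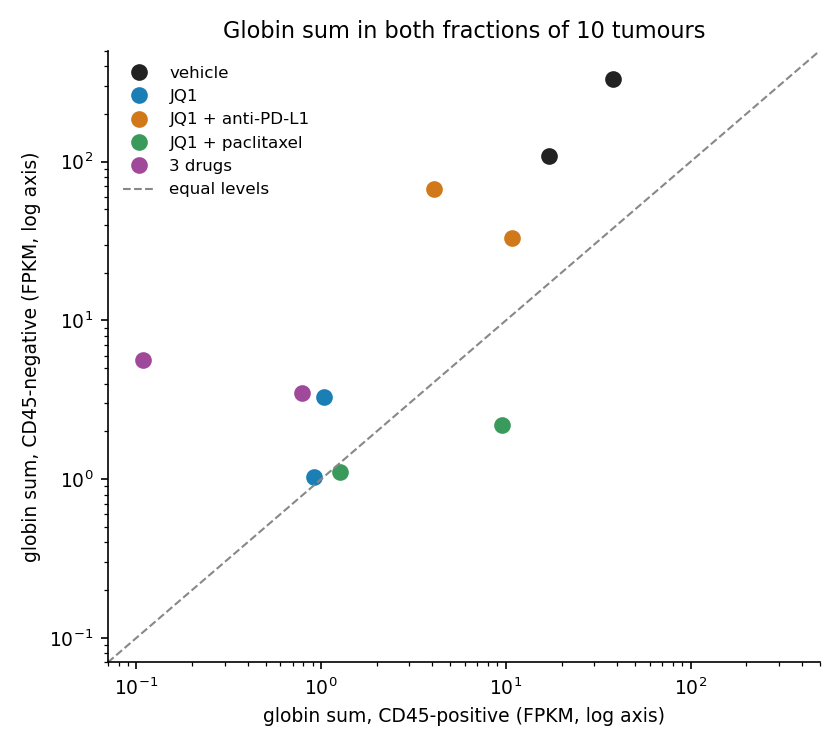
Globin sum in FPKM of the CD45-negative library (vertical log axis) against the CD45-positive library (horizontal log axis) of 10 tumours, coloured by treatment, with a dashed line of equal levels. Of the 10 points, 8 lie above the line, and both vehicle tumours lie farthest to the right and highest.

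Whether the wider red cell programme was present was examined with lists of 77 other genes of haem synthesis, iron handling, red cell membrane, erythroid transcription factors and late erythroid enzymes. Genes that define red cells and their precursors were at or near 0. Of 18 genes of the red cell membrane and cytoskeleton, 13 stayed under 1 FPKM in all 22 libraries. Kel, a blood group protein, was listed at 0 in all 22 libraries. Slc4a1, the band 3 anion exchanger, was above 0 in a single library, at 0.0729 FPKM in JQ1 with paclitaxel replicate 3 of the CD45-negative fraction. Gata1, the master transcription factor of the lineage, was listed at 0 in all CD45-negative libraries and reached 0.326 FPKM in 1 CD45-positive library. Klf1, which activates adult beta-globin, was at 0.068 and 0.11 FPKM in CD45-negative vehicle libraries and up to 0.375 FPKM in a JQ1 library. The late genes Car1, Trim58, Pklr and Tspo2 were listed at 0 in all 22 libraries. The erythroid label therefore rests on the adult globins and a trace of Alas2.

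Some list genes that many cell types also express were at substantial levels and could be tested, 46 of the 77 in CD45-negative and 45 in CD45-positive cells. For the treated mean against vehicle in CD45-negative cells, 2 rose and 2 fell by limma, while 7.37% of all 10780 genes were called. The median of the 46 differences was −0.09, against −0.05 over all genes. Of the 46, 17 had an unadjusted p under 0.05, a cut for which no share of all genes was taken. The largest difference called was −1.11, for Bpgm.

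Among 13 genes of haem synthesis and mitochondrial iron, only Uros, which encodes the fourth enzyme of the pathway, passed limma's threshold for the treated mean (0.61 ± 0.16, adjusted p = 0.0415). Its level was 2.64 and 2.86 FPKM with vehicle, 6.54 and 8.65 with JQ1, 7.95, 7.75 and 7.16 with JQ1 and paclitaxel, 3.77 and 3.72 with JQ1 and anti-PD-L1, and 2.86, 1.90 and 1.59 with all 3 drugs. The high values were those of both treated groups without anti-PD-L1, and the 3-drug libraries lay at or below the vehicle level. In the comparison of groups with and without anti-PD-L1, which called 25% of all genes, 4 genes of the list fell. They were Uros (−1.17 ± 0.14, limma adjusted p = 0.000218), Fech, the last enzyme (−0.60 ± 0.10, 0.00123), Tmem14c, a mitochondrial porphyrin transporter (−0.44 ± 0.12, 0.0159), and Urod, the fifth enzyme (−0.39 ± 0.11, 0.0262). Alas1, the housekeeping counterpart of Alas2, was at 6.49 to 12.4 FPKM in all 12 CD45-negative libraries.

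Of 16 genes of iron uptake, storage and haem breakdown, Ireb2, an RNA-binding protein that senses iron, rose for the treated mean (0.52 ± 0.13, limma adjusted p = 0.0342). It was at 1.48 and 1.67 FPKM with vehicle and between 1.91 and 3.29 FPKM in the treated CD45-negative libraries, without overlap. Slc11a2, an iron importer, rose in the 3-drug group by 1.25 ± 0.25 (adjusted p = 0.043). The transferrin receptor Tfrc was at 2.73 to 3.54 FPKM with vehicle and 1.91 to 6.36 FPKM with treatment and was not called for the treated mean. Hmox1, which breaks haem down and is induced by it, was at 234 and 521 FPKM with vehicle and 255 to 486 FPKM with treatment, so the groups overlapped.

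Among 17 red cell enzymes and late erythroid genes, Bpgm and Cat fell. Bpgm makes the metabolite that loosens oxygen from haemoglobin, and Cat encodes catalase, which destroys hydrogen peroxide in most cells. Bpgm was at 6.03 and 12.1 FPKM with vehicle, 2.47 and 2.23 with JQ1, 3.81 and 4.21 with JQ1 and anti-PD-L1, 3.50, 2.499 and 3.21 with JQ1 and paclitaxel, and 5.29, 3.14 and 6.41 with all 3 drugs, a difference of −1.11 ± 0.24 (limma adjusted p = 0.0159). A 3-drug library thus lay above the lower vehicle library. Cat was at 109 and 107 FPKM with vehicle and between 61.0 and 84.1 FPKM in the 10 treated libraries (−0.60 ± 0.12, limma adjusted p = 0.01). In place of 4 list genes, limma called none with 1 value per mouse code or without vehicle replicate 2, and 1 with depth as a covariate or without vehicle replicate 1. Calls over all genes dropped too, from 794 to 57 without vehicle replicate 2 and to 118 without vehicle replicate 1.

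**Figure D4:**
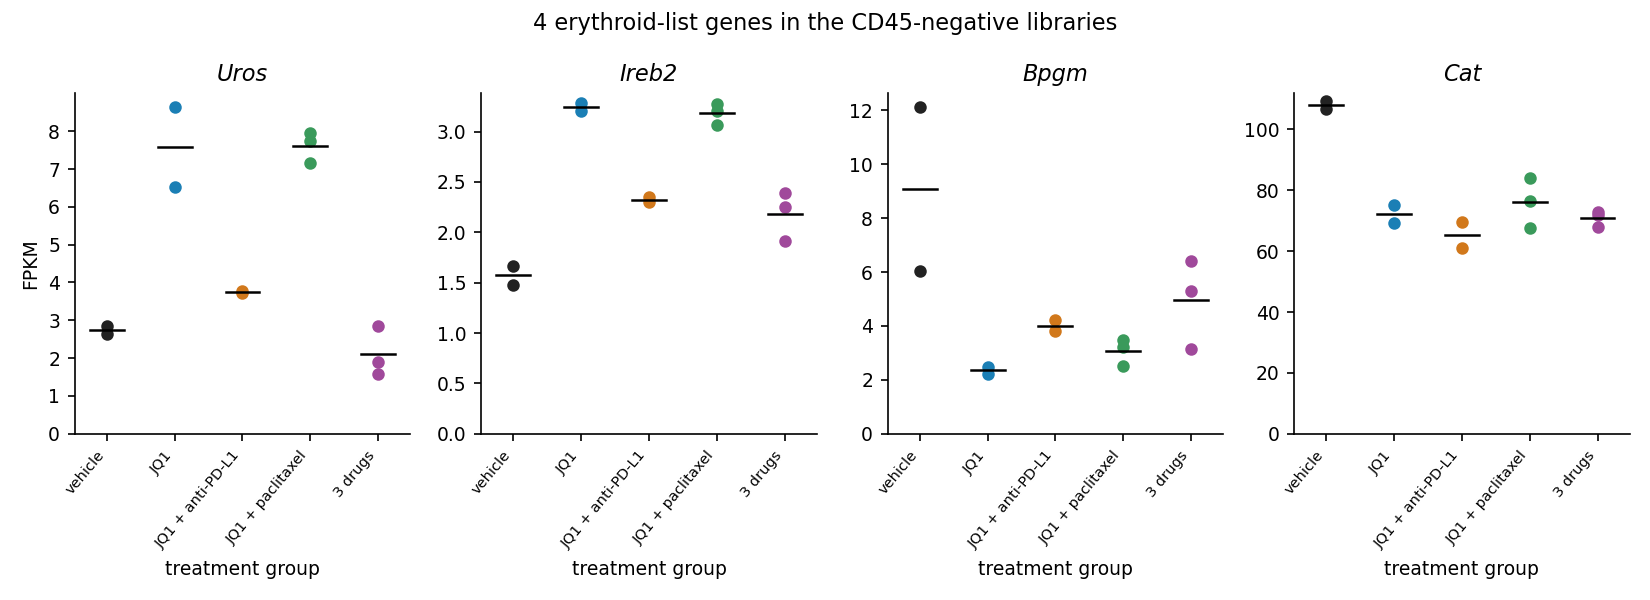
Level in FPKM (vertical axis) of Uros, Ireb2, Bpgm and Cat in each CD45-negative library by treatment group (horizontal axis), with bars at group means. Uros and Ireb2 are highest in JQ1 and JQ1 with paclitaxel, Cat is highest in vehicle, and Bpgm of a 3-drug library lies above the lower vehicle library.

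By group, 4 list genes rose and 7 fell with JQ1 in CD45-negative cells (14.8% of all genes called), among them Uros (1.19 ± 0.21, limma adjusted p = 0.00394) and Bpgm (−1.52 ± 0.30, adjusted p = 0.00706). With JQ1 and paclitaxel 5 rose and 7 fell (17.6% called), among them Epor, the erythropoietin receptor (−0.91 ± 0.27, limma adjusted p = 0.0348). Epor was at 1.58 and 1.53 FPKM with vehicle and at 0.278, 0.737 and 0.128 FPKM in that group. With all 3 drugs Slc11a2 rose and Cat fell (1.63% called), and with JQ1 and anti-PD-L1 limma called none (0.25% of all genes called). In the latter comparison 10 had an unadjusted p under 0.05, with no share of all genes taken at that cut. In groups with anti-PD-L1 against those without, 8 rose and 8 fell (25% of all genes called), and for paclitaxel Slc11a2 was the only list gene called (0.74 ± 0.18, adjusted p = 0.0398, with 3.56% called).

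In CD45-positive cells none of the 45 list genes was called for the treated mean by limma. Of these, 10 had an unadjusted p under 0.05, a cut for which no share of all genes was taken. The median difference of the 45 was 0.04 against −0.04 over all genes. With JQ1 and paclitaxel (4.84% of all genes called), Hmox1 rose (1.35 ± 0.24, limma adjusted p = 0.021), as did the water channel Aqp1 (2.29 ± 0.50, adjusted p = 0.0392). In the same comparison Hp, which encodes the haemoglobin-binding plasma protein haptoglobin, fell (−1.65 ± 0.27, adjusted p = 0.0162), as did Blvra, a biliverdin reductase (−0.92 ± 0.19, adjusted p = 0.0303). Hp was at 30.5 and 26.1 FPKM with vehicle and 8.04 and 8.61 FPKM in that group. In groups with anti-PD-L1 against those without, Hp (1.26 ± 0.19) and Blvra (0.89 ± 0.13) rose, both with a limma adjusted p of 0.0433.

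**Figure D5:**
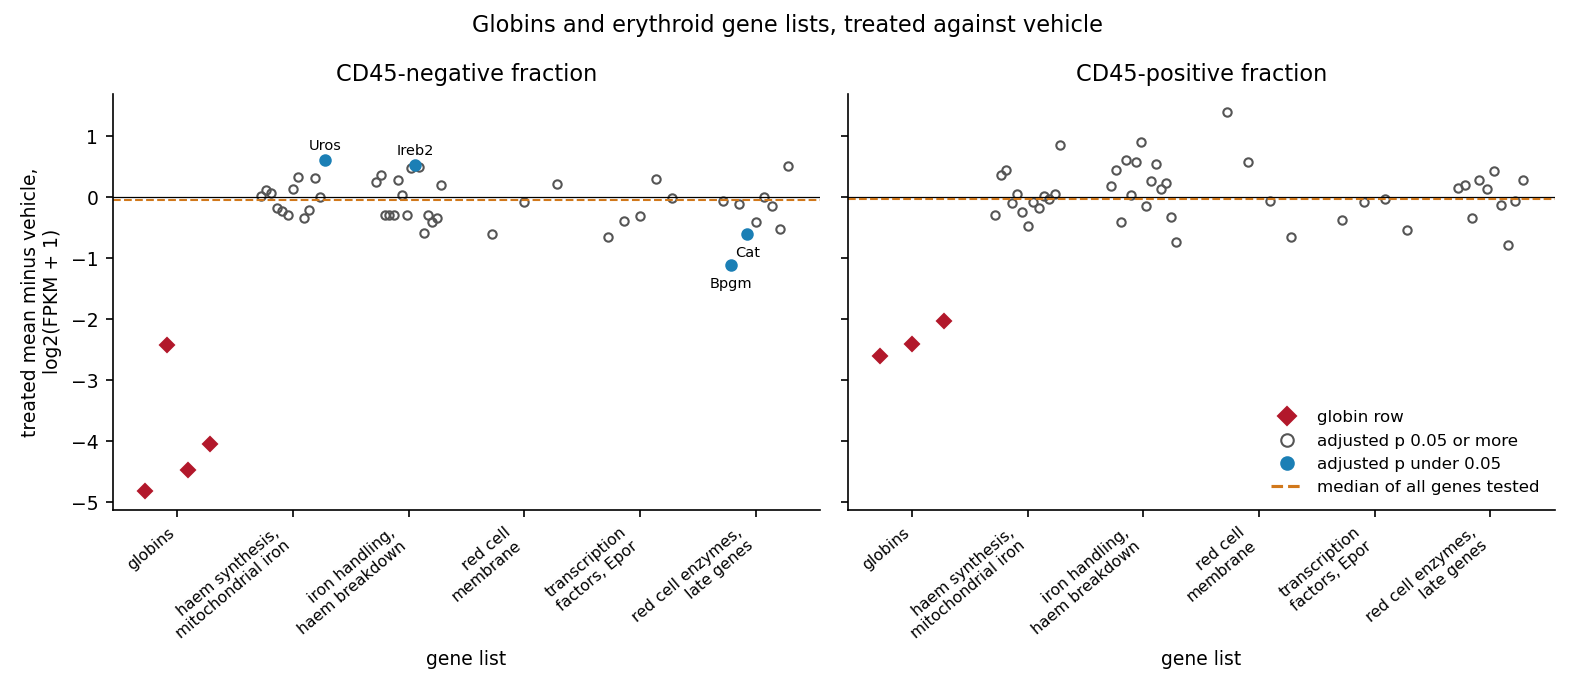
Difference of treated mean minus vehicle in log2(FPKM + 1) (vertical axis) for globin rows (red diamonds) and tested genes of 5 erythroid lists (circles, filled where the limma adjusted p was under 0.05) in both fractions, with the median of all tested genes dashed. Globin rows lie at −2.02 or lower, and no list gene lies below −1.11.

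Markers of other cells moved between groups as well, and their part in the globin values was not tested. The summed FPKM of 11 platelet and megakaryocyte markers in the CD45-negative fraction was 16.3 to 24.9 with vehicle and 88.1 to 188 with JQ1 and anti-PD-L1, which also had the highest globin sums after vehicle, and 7.98 to 37.3 in the other groups. Tubb1 of that list was listed at 0 in each CD45-negative library. Pf4, a platelet chemokine that macrophages can also express, made up most of this sum (21.7 and 12.9 FPKM with vehicle, 165 and 83.0 with JQ1 and anti-PD-L1). In the CD45-positive fraction the platelet and megakaryocyte markers summed to 191 to 345 FPKM with vehicle and 1036 to 1172 with JQ1 and anti-PD-L1. In CD45-negative cells the 8 neutrophil markers summed to 18.9 to 22.3 FPKM with vehicle, 54.8 to 56.0 with JQ1 and anti-PD-L1, and 7.01 to 12.5 in both paclitaxel groups. In the CD45-negative fraction 12 pan-leukocyte markers summed to 267 to 354 FPKM with vehicle, 521 to 722 with JQ1 and anti-PD-L1 and 231 to 655 in the other treated groups. Limma called none of the 12 for JQ1 with anti-PD-L1 against vehicle. Of the 12, 9 had an unadjusted p under 0.05, with no share of all genes at that cut to set beside it. The 9 macrophage markers summed to 288 to 381 FPKM with vehicle, 511 to 522 with JQ1 and anti-PD-L1 and 275 to 891 in the other treated groups. The 10 endothelial markers, which also bear on how much vessel a sample held, summed to 6.92 to 12.5 FPKM with vehicle and 8.66 to 38.0 with treatment in CD45-negative cells. In CD45-positive cells they summed to 6.02 to 10.4 FPKM with vehicle and 16.1 to 105 with treatment. For the treated mean, 4 of the 9 tested rose by limma in CD45-positive cells, where 0.822% of all genes were called. In CD45-negative cells limma called none of the 7 tested, of which 2 had an unadjusted p under 0.05, again with no share of all genes at that cut. Ptprc, which encodes CD45, was at 1.25 to 8.65 FPKM in CD45-negative and 38.6 to 73.6 FPKM in CD45-positive libraries. Relative depth was 0.547 to 1.79 across CD45-negative libraries, with both vehicle libraries (1.79 and 1.13) deeper than both JQ1 libraries (0.554 and 0.653). Other treated libraries were deeper than vehicle replicate 2: JQ1 with paclitaxel replicates 1 and 3 (1.45 and 1.58) and JQ1 with anti-PD-L1 replicate 1 (1.39).

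The genes whose levels went most closely with the globin sum were not red cell genes by list. Over the 12 CD45-negative libraries, Pearson's r of log2(FPKM + 1) was highest for Dok1 (0.939), an adaptor of tyrosine kinase signalling, Cetn3 (0.917), a centrosome protein, and the T cell transcription factor Tcf7 (0.909), followed by Efcab7, Fndc4, Ccr2, Specc1, Ndufaf5, Emd and Ttll11 (0.897 to 0.907). Over the 10 CD45-positive libraries it was highest for the respiratory chain subunits Uqcr10 (0.907) and Ndufc1 (0.906), then Dusp19, Cox7b, Cox6c, Mrpl52, Usmg5, a gene known by a clone identifier, Flad1 and Atp5l (0.849 to 0.904). The libraries share normalization and depth differences, and both vehicle libraries are high in each case, so these are descriptions. Of the 10 genes in the first set, none was in the second. Among all genes tested, 158 of 10776 and 27 of 10337 had an r of at least 0.8, and of the erythroid lists none of 46 and none of 45 had, with medians of 0.07 and −0.05.

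The promoters of Hba-a1, Hbb-bt and Alas2 are shown as a description, and a link of their letters to the levels was not tested. The 250 bases before each start, from RefSeq on GRCm38.p6, lie at chr11:32283422-32283671 (plus strand), chr7:103813924-103814173 (minus strand) and chrX:150547167-150547416 (plus strand). Capitals mark each match to GATAA, to CACCC, to CCAAT or to TATAA, on this strand or, as the reverse complement, on the other, and matches may overlap. These letters are found in sites of the GATA factors, of Klf1 and related factors, of NF-Y and of the TATA-binding protein.
Hba-a1: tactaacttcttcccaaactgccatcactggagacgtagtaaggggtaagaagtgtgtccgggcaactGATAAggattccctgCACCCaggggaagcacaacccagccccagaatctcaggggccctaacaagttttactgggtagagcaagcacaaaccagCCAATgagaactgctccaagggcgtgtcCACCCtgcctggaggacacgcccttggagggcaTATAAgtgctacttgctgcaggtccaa
Hbb-bt: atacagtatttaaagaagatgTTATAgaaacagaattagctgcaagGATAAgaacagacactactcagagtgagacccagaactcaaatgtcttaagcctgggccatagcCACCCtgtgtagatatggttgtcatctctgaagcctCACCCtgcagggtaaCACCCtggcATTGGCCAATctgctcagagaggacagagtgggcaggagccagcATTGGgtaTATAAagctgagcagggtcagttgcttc
Alas2: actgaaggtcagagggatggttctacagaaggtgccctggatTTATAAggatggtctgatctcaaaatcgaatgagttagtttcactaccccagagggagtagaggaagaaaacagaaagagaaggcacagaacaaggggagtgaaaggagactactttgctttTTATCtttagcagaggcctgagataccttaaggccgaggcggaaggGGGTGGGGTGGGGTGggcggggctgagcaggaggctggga
The Hba-a1 window held 1 GATAA, 2 CACCC, 1 CCAAT and 1 TATAA, and the Hba-a2 window shared 247 bases with it without a difference, offset by 3 bases. The Hbb-bt window held 1 GATAA, 3 CACCC, 3 CCAAT, of which 2 lie on the opposite strand, and 2 TATAA. The Alas2 window held GATAA, 3 CACCC in a row and a TATAA that overlaps its own reverse complement, but no CCAAT. Of 32851 promoters, windows of the same length held GATAA in 22.6%, CACCC in 52.0%, CCAAT in 33.8%, TATAA in 22.8% and all of them in 0.968%. Such matches describe these letters and do not show binding.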

How the data were processed

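Bulk RNA sequencing covered both CD45 fractions of EMT6 tumours. Per the labels' protocols, libraries came from a low-input SMARTer kit, and per the submitters' processing notes the aligner was STAR 2.5.1b and the build mm9. Which program turned alignments into gene values is not given in the sources used here. Both deposited tables hold FPKM made by the authors, a unit inferred from the values, which have decimals and sum to 296682 to 370513 per library, although the file labels speak of counts. Absolute depth is therefore unknown, and precision is taken from the spread between libraries. Steps between low values gave depths relative to the mean of a fraction.

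Of 24353 rows, 23723 matched mouse symbols. Genes that reached 1 FPKM in 2 or more of a fraction's libraries were fitted as log2(FPKM + 1) of the 5 groups, 1 limma model with a mean-variance trend per fraction (R 4.3.3, limma 3.58.1), with two-sided tests over 7 comparisons and Benjamini-Hochberg adjustment over all genes tested in a comparison. Fitted on simulated data, the treated mean of CD45-negative cells recovered 85% of genes changed by 1 on the log2 scale. It recovered 98% of those changed by 2 (10497 and 10502 genes). That of CD45-positive cells recovered 39.5% and 88.5% (10026 and 10041 genes). Of the calls made there, 7.10% and 5.77% were false in CD45-negative cells, and 5.95% and 3.80% in CD45-positive cells. Each simulated library had independent noise, and all treated groups were raised alike, with no differences between mice. How far these shares hold where mice differ, or for the globins, was not tested. For limma's p-values, shares of all genes were taken at the adjusted threshold only, so nothing is read from counts at an unadjusted p. The CD45-positive globin sum was tested by exact permutation. Values after ± are SD for levels and SE for differences.

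Samples were grouped by the labelled fraction and treatment. The members, the 12 gene lists and the tests were chosen with earlier results of these data known. Named genes are the 4 members, all globin rows, up to 5 called genes of each list per comparison by p (otherwise up to 3 of the highest level), Ptprc and the 10 genes of highest correlation with the globin sum in each fraction. List genes named because they are at or near 0, Alas1, Tfrc, Klf1 and the motifs searched were chosen after their values were seen. Alternatives were other pseudocounts, filters and scalings, depth as a covariate, 1 value per mouse code, a block of tumour side, leaving out each library and, added after seeing the data, summing globin copies before the fit. Coding sequences come from GENCODE M21 and promoters from RefSeq, both GRCm38. Figures were drawn with matplotlib 3.10.9.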

Additional observations from a re-analysis of the deposited data

How the results depend on the processing

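No result changed direction under any alternative run. The CD45-positive globin sum difference of −3.05 was between −3.60 and −2.50 with 1 library left out (exact permutation p 0.0556 or, without a vehicle library, 0.222, the smallest each allows) and −3.15 with 1 value per mouse code (exact permutation p 0.286), and Alas2 in its place gave −0.158 (0.0889). With 1 library left out, the CD45-positive differences ranged from −3.14 to −2.07 for Hba-a1, from −2.89 to −1.93 for Hbb-b1 and from −2.54 to −1.50 for Hbb-bt. Over all alternatives limma's adjusted p was 0.0359 to 0.544, 0.0108 to 0.91 and 0.0282 to 0.744. With a pseudocount of 0.1 the CD45-negative differences were −5.56 for Hbb-b1, −5.25 for Hbb-bt, −6.18 for Hba-a1, −2.47 for Alas2 and −5.49 for the globin sum. The CD45-positive ones were −3.86, −3.37 and −3.78 for the 3 globins in that order (limma adjusted p 0.081 to 0.106) and −3.80 for the sum. With 1 library left out the CD45-negative differences of Hbb-b1, Hbb-bt and Alas2 were −5.28 to −3.64, −4.87 to −3.22 and −0.886 to −0.594, the outer values coming from either vehicle library. The 4 erythroid list calls in CD45-negative cells became 0 with 1 value per mouse code (10 calls over all genes), 1 with depth as a covariate (332 calls) and 0 to 4 with 1 library left out. They were 2 without JQ1 with anti-PD-L1 replicate 1 or 2 or without 3-drug replicate 2. In CD45-positive cells no list gene was called in any of 18 alternatives, while calls over all genes, 85 in all, ranged from 0 to 128. Replicate numbers do not pair tumours across groups. With tumour side as a replicate block the same 4 list genes were called in CD45-negative cells and none in CD45-positive cells. Over all genes 741 were called in place of 794 (702 shared) and 44 in place of 85 (43 shared). With that block limma's adjusted p stayed above the threshold for Hbb-b1 (0.063), Hbb-bt (0.0688) and Hba-a1 (0.0996). Depth may limit Alas2, since its treated values appear to rest on a few reads.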
